A study of Danio rerio with 25 samples.

Results

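The genes described here were 10 transcription factors of the heart field and heart muscle that were not used as markers of the epicardium: gata4, gata5, gata6, nkx2.5, hand2, tbx5a, tbx20, tbx2b, mef2ca and isl1. They were chosen by name, and all 10 were found among the 31275 genes of the RNA table. Chromatin regions were assigned to them by the deposited peak annotation, which gave 57 of 61954 accessibility peaks to these genes. All 10 genes and all 57 peaks passed the filter on low counts, which left 20745 genes and 61883 peaks.

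These factors belong to a small network that turns progenitor cells into heart muscle. Zinc-finger factors of the Gata family, the homeobox factor Nkx2.5, T-box factors, the basic helix-loop-helix factor Hand2 and the MADS-box factor Mef2c bind to one another or to neighbouring sites and switch on genes of contraction. In vertebrate embryos several of them are made outside the muscle as well: Gata factors, Hand2 and Tbx5 are also known from the proepicardium or the epicardium, the cell layer that covers the heart.

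Zebrafish heart cells were profiled by RNA sequencing and by ATAC-seq, in which a transposase cuts and tags open DNA. Larvae were untreated and 5 days post fertilization. Larval epicardium and the remaining larval heart cells, called non-epicardium, were separated by fluorescence-activated cell sorting with a tcf21:H2B-Dendra2 reporter (3 RNA and 2 ATAC libraries of each population) or with a tbx18:myr-Citrine reporter (2 ATAC libraries of each). Adult epicardium carried tcf21:BirA-mCherry and was taken 3 days after cryoinjury, a freeze wound of the ventricle (3 RNA and 4 ATAC libraries), or 3 days after sham surgery (2 RNA and 2 ATAC libraries). Adult ATAC cells were sorted, and adult RNA was taken from nuclei captured by pulldown. All adults had cryoinjury or sham surgery. Where adult and larval libraries are compared, stage, surgery, reporter construct and, for RNA, purification cannot be told apart. Nothing states that libraries of a group came from separate pools of animals, so p-values measure the spread between these libraries, which may be technical. Larval RNA libraries are named A, B and C in column order, since the column numbers differ from those in the sample titles, and all other libraries keep their numbers.

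Total counts were 4635226 to 8371594 in RNA and 755606 to 6248597 in ATAC. Levels are given in CPM, counts scaled to a common library total with TMM factors, and a count of 3 in a library is taken as the floor of detection. The 5 epicardial marker genes summed to 515 to 1430 CPM in larval epicardium, to 10.6 to 18.3 CPM in larval non-epicardium and to 371 to 571 CPM in adult libraries. The 11 cardiomyocyte marker genes, such as myl7 and vmhc, summed to 354, 369 and 1600 CPM in larval epicardium, with the highest sum in library C. They summed to 5550 to 16500 CPM in larval non-epicardium, 39500 to 52700 CPM after cryoinjury, 61100 CPM in sham 12 and 127000 CPM in sham 4. All 11 were detected above the floor in every library. In adult libraries 45.1% to 53.4% of all genes had no count, against 7.4% to 24.9% in larval libraries. In bulk libraries fewer cells of a type and less RNA per cell cannot be told apart.

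Between larval epicardium and larval non-epicardium, gata6 was higher in the epicardium and nkx2.5 was lower, and the other 8 factors did not pass the test. The 2 called genes were 20% of the factors, against 13.4% of all genes tested (adjusted p under 0.05, edgeR's quasi-likelihood test with Benjamini-Hochberg adjustment over all genes). The libraries of both populations did not overlap for 7 of the 10 factors, 70% against 43% of all genes. The median log2 difference of the factors was 0.55, beside 0.32 over all genes.

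**Figure D1:**
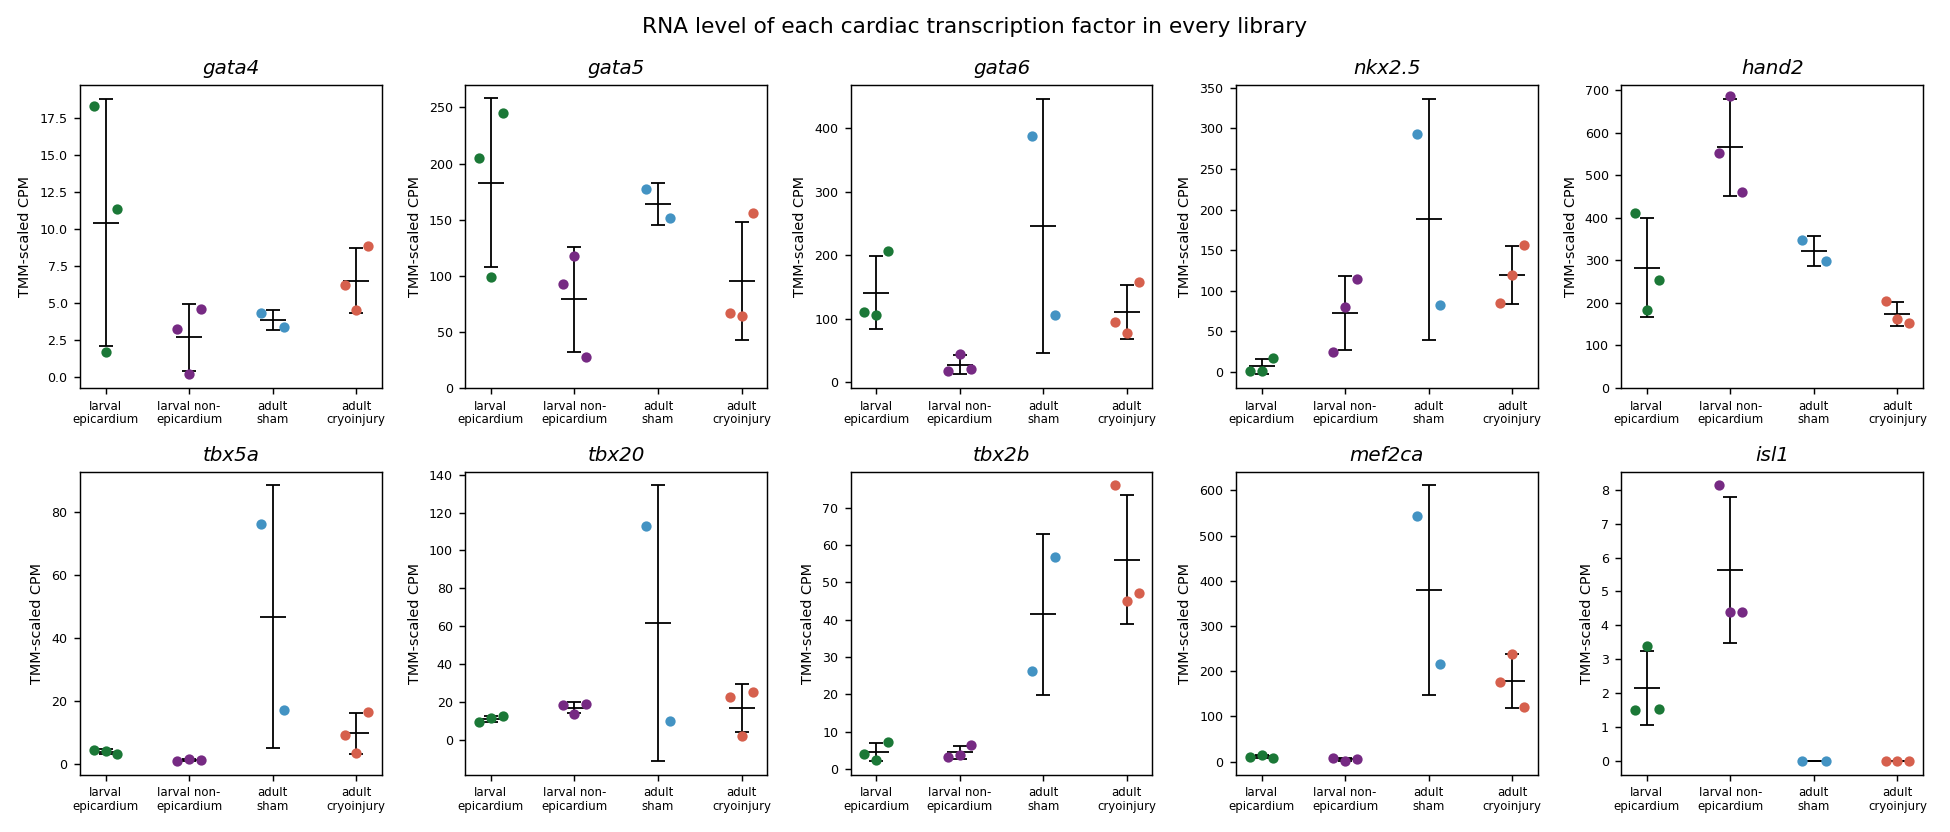
TMM-scaled CPM of each of the 10 factors in every RNA library, with 1 panel per gene, each on its own axis that starts at or under 0. Points are libraries, long bars are group means and whiskers are 1 SD. gata6 in larval epicardium lies at 106 to 207 CPM, above all larval non-epicardium libraries (17.5 to 44.3 CPM), while mef2ca and tbx2b are high in adult libraries and isl1 is at 0 there.

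The 3 Gata genes had their higher mean level in larval epicardium. gata6, a factor needed for heart and endoderm formation, was at 110, 106 and 207 CPM in larval epicardium A, B and C. In larval non-epicardium it was at 17.5, 44.3 and 20.2 CPM, so that every epicardial library lay above every non-epicardial one. Its log2 difference was 2.37 ± 0.57 (SE; n = 3 and 3), a 5.15-fold higher level, with an adjusted p of 0.00835 in edgeR. The call held in all 14 alternative settings, and leaving out a library gave values from 2.01 to 2.90. gata5, required in zebrafish for the fusion of the heart fields, was at 205, 98.8 and 245 CPM in larval epicardium and at 92.3, 118 and 27.1 CPM in non-epicardium. Epicardial library B fell within the non-epicardial range, and the difference of 1.2 ± 0.56 did not pass (adjusted p = 0.169). It passed with scaling by total count (1.67, adjusted p = 0.0218) and with the trend on abundance removed (1.60, adjusted p = 0.0341). gata4, a cofactor of T-box and Nkx proteins in heart muscle, was the lowest of the 3 in every larval library. It was at 18.3, 1.65 and 11.3 CPM against 3.25, 0.191 and 4.59 CPM. Libraries of both populations overlapped, and the difference of 1.95 ± 1.1 did not pass (adjusted p = 0.271).

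nkx2.5, one of the earliest genes of heart muscle progenitors, stood at 0.947 CPM in larval epicardium A, 1.34 CPM in B and 17.5 CPM in C. Larval non-epicardium had 24.0, 79.9 and 114 CPM, all above the epicardial libraries. The log2 difference was -3.46 ± 0.88 (SE; n = 3 and 3), an 11-fold lower level in epicardium, with an adjusted p of 0.0118 in edgeR. Without epicardium B it was -2.96 and no longer called (adjusted p = 0.0674), and without epicardium C it was -5.93. Epicardium C was also the epicardial library with the highest cardiomyocyte marker sum, 1600 CPM, and the part of these cells in its nkx2.5 level was not tested. hand2, which in zebrafish is needed to make ventricular muscle, was the most abundant factor per gene length in both larval populations. It was at 411, 184 and 255 CPM in epicardium and at 552, 686 and 460 CPM in non-epicardium. The populations did not overlap, but the difference of -1 ± 0.43 did not pass (adjusted p = 0.133).

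The T-box genes were at or under 19.0 CPM in every larval library. tbx5a, the gene mutated in the zebrafish heartstrings mutant, was at 4.6, 4.02 and 3.18 CPM in epicardium and at 1.08, 1.72 and 1.25 CPM in non-epicardium. All epicardial libraries were higher, and the difference of 1.53 ± 0.84 did not pass (adjusted p = 0.256). tbx20, a T-box regulator of heart muscle growth, was at 9.47, 11.4 and 12.7 CPM against 18.4, 13.8 and 19.0 CPM, with a difference of -0.61 ± 0.82 (adjusted p = 0.655). tbx2b, which represses chamber genes at the atrioventricular canal, differed least, at 3.92, 2.47 and 7.12 CPM against 3.25, 3.63 and 6.47 CPM. Its log2 difference was 0.02 ± 0.64, and its sign turned under 5 of 14 alternatives.

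mef2ca and isl1, the last of the factors, were at or under 13.9 CPM in larvae. mef2ca, which encodes a MADS-box activator of muscle genes, was at 11.1, 13.9 and 8.77 CPM in larval epicardium and at 8.31, 1.53 and 6.05 CPM in non-epicardium. The populations did not overlap, and the difference of 1.08 ± 0.57 did not pass (adjusted p = 0.231) except with scaling by total count (1.72, adjusted p = 0.0447). isl1, a LIM-homeobox gene of late-adding heart progenitors and of pacemaker cells, had 11, 33 and 12 counts in larval epicardium (1.49, 3.40 and 1.53 CPM) and 45, 23 and 21 counts in non-epicardium (8.13, 4.40 and 4.38 CPM). Every non-epicardial library was higher, and the difference of -1.39 ± 1.14 did not pass (adjusted p = 0.46).

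Set against larval epicardium, adult epicardial libraries held more nkx2.5, tbx2b and mef2ca after either surgery, and isl1 was not detected in any of them. After cryoinjury 3 factors were higher and 1 was lower, 40% called against 38.1% of all genes. In the higher direction alone the factors' share was 30%, against 12.1% of all genes. After sham surgery 5 factors were higher and 1 was lower, 60% called against 37.2% of all genes, with 50% of the factors against 11.5% of all genes in the higher direction. Both comparisons use the same 3 larval epicardium libraries, so they are not independent. The factors' median log2 difference was 0.11 after cryoinjury, beside -0.59 over all genes, and 1.62 after sham surgery, beside -0.92. With isl1 set at its bound it was still the lowest of the factors, so neither median could change.

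**Figure D2:**
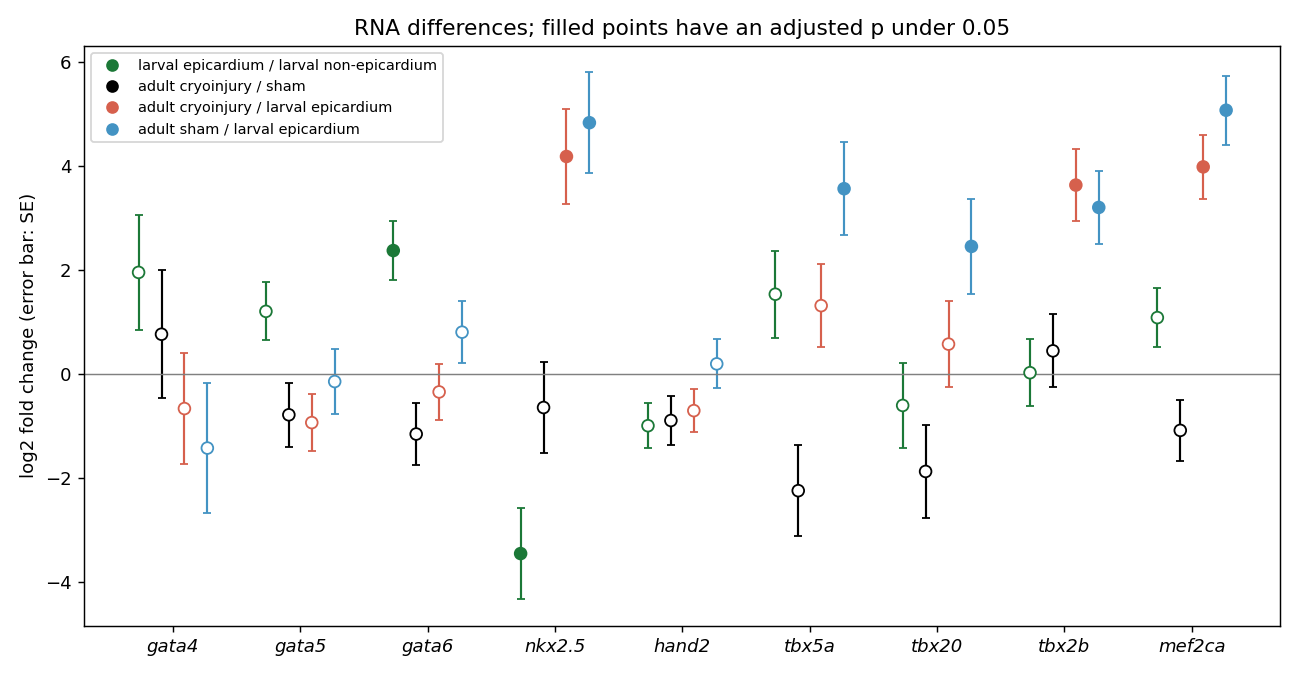
Log2 fold change of 9 factors in the 4 RNA comparisons, named in the key as first group / second group, with error bars of 1 SE; filled points have an adjusted p under 0.05, and isl1 is left out because it had no count in adult libraries. mef2ca, tbx2b and nkx2.5 are filled in both comparisons of adult with larval epicardium, and no factor is filled in cryoinjury against sham.

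Of the factors called higher, nkx2.5 had the largest difference after cryoinjury and mef2ca after sham surgery. mef2ca was at 175, 239 and 121 CPM in cryoinjury libraries 7, 8 and 9 and at 543 and 215 CPM in sham libraries 4 and 12, against 8.77 to 13.9 CPM in larval epicardium. All adult libraries lay far above all larval ones. The log2 difference was 3.98 ± 0.61 after cryoinjury (n = 3 and 3, adjusted p = 8.72e-05, edgeR) and 5.07 ± 0.66 after sham surgery (n = 2 and 3, adjusted p = 1.75e-05). Without sham 4 the sham difference was 4.31 and remained called. nkx2.5 was at 84.4, 119 and 156 CPM after cryoinjury and at 293 and 82.6 CPM after sham surgery, against 0.947 to 17.5 CPM in larval epicardium. No adult library overlapped the larval ones, with differences of 4.18 ± 0.91 (adjusted p = 0.00211) and 4.83 ± 0.97 (adjusted p = 0.00129). Both calls held without any 1 library, with values from 3.75 to 6.65 after cryoinjury and from 3.70 to 7.29 after sham surgery. The highest value in either comparison was that without larval epicardium C, and the lowest sham value was that without sham 4. tbx2b was at 76.0, 45.1 and 47.2 CPM after cryoinjury and at 26.1 and 56.7 CPM after sham surgery, against 2.47 to 7.12 CPM in larval epicardium. Adult and larval libraries were again separate, with differences of 3.63 ± 0.69 (adjusted p = 0.000685) and 3.20 ± 0.71 (adjusted p = 0.00306). tbx2b was lower in sham 4 than in sham 12, and without sham 12 its difference was 2.5.

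tbx5a and tbx20 were called after sham surgery, and both calls rested on sham 4. tbx5a was at 76.2 CPM in sham 4 and 17.2 CPM in sham 12, and at 9.13, 3.67 and 16.5 CPM after cryoinjury, against 3.18 to 4.6 CPM in larval epicardium. The sham libraries were above the larval ones, whereas cryoinjury 8 fell within the larval range. The sham difference was 3.56 ± 0.90 (adjusted p = 0.00718), and without sham 4 it was 2.17 and not called (adjusted p = 0.123). The cryoinjury difference of 1.31 ± 0.80 did not pass (adjusted p = 0.21). tbx20 was at 113 CPM in sham 4, 10.2 CPM in sham 12 and 22.8, 2.04 and 25.1 CPM after cryoinjury, against 9.47 to 12.7 CPM in larval epicardium. Sham 12 fell within the larval range. The sham difference of 2.45 ± 0.91 was called (adjusted p = 0.0411), but it was lost or changed sign in 8 of 12 alternatives and was -0.08 without sham 4.

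isl1 had no count in any of the 5 adult libraries. The larval epicardium mean of isl1, 2.14 CPM, was set against the floor of 3 counts per library. By this mean isl1 was at least 3.49-fold lower after cryoinjury (adjusted p = 0.00747 in edgeR). After sham surgery it was at least 2.98-fold lower (adjusted p = 0.0271). Larval epicardium B, at 3.40 CPM, raised the mean, and A and C, at 1.49 and 1.53 CPM, give smaller folds. The sham call was lost in 4 of 12 alternatives, each sham library left out in turn among them. The cryoinjury call held in 12 alternatives. In a fit of cryoinjury and larval epicardium alone, isl1 failed the filter on low counts, and 9 factors were tested with 0 lower. In the main fit isl1 passed the filter through larval libraries, non-epicardium among them. Larval isl1 counts were themselves small, and its larval epicardial level per gene length ranked at the 37.4 percentile of all genes. Adult libraries also had more genes without a count than larval libraries, as given above, and the part of this in the isl1 difference was not tested.

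The Gata genes and hand2 did not pass the test between adult and larval epicardium. gata6 was at 95.3, 77.5 and 158 CPM after cryoinjury and at 388 and 105 CPM after sham surgery, overlapping the 106 to 207 CPM of larval epicardium, with differences of -0.35 ± 0.54 (adjusted p = 0.651) and 0.80 ± 0.60 (adjusted p = 0.3). gata5 was at 66.5, 63.8 and 156 CPM and at 177 and 151 CPM, with differences of -0.94 ± 0.55 (adjusted p = 0.194) and -0.15 ± 0.62 (adjusted p = 0.865). Both Gata genes overlapped between the stages, with sham 4 the highest library for gata6. gata4 was the lowest Gata gene of the 3 in every adult library, at 6.21, 4.49 and 8.82 CPM after cryoinjury and 4.30 and 3.39 CPM after sham surgery. Its differences of -0.67 ± 1.06 and -1.43 ± 1.25 did not pass (adjusted p = 0.66 and 0.383). hand2 was at 205, 162 and 153 CPM after cryoinjury and at 347 and 298 CPM after sham surgery, against 184 to 411 CPM in larval epicardium. Its cryoinjury difference of -0.71 ± 0.42 did not pass (adjusted p = 0.2), although it was called with DESeq2 size factors (-1.04), with scaling by total count (-0.91) and in DESeq2 (-1.04). Its sham difference of 0.19 ± 0.47 (adjusted p = 0.781) turned negative under those 3 settings and with the trend on abundance removed.

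Cryoinjury and sham surgery, compared to ask what injury changes in the adult epicardium, gave no called factor out of 10, against 0.318% of all genes called by edgeR. DESeq2 called none of the 10 either, while it called 1515 of all 20745 genes against 66 in edgeR. At an unadjusted p under 0.05 there was 1 factor, tbx5a, at -2.25 ± 0.87 (n = 3 and 2, adjusted p = 0.174), and 18.7% of all genes. The libraries did not overlap for gata4, hand2 and tbx5a, 30% of the factors against 22.9% of all genes. hand2 was at 153 to 205 CPM after cryoinjury and at 298 and 347 CPM after sham surgery, with a difference of -0.90 ± 0.47 (adjusted p = 0.308). The factors' median difference was -0.84, beside 0.02 over all genes. Without sham 4 the differences of gata6, nkx2.5, tbx20 and tbx2b changed sign, to 0.04, 0.50, 0.67 and -0.06.

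Sham 4 was the highest of the 11 RNA libraries for 5 of the 10 factors: gata6, nkx2.5, tbx5a, tbx20 and mef2ca. The share of all genes with sham 4 as the highest library was not counted, so this is not read as a trait of the factors. Sham 4 also had the highest sum of the 11 cardiomyocyte markers, 127000 CPM against 61100 CPM in sham 12 and 39500 to 52700 CPM after cryoinjury. All 11 of these markers were called higher in adult than in larval epicardium in both comparisons, with a median log2 difference of 5.79 after cryoinjury and 6.4 after sham surgery. In larval epicardium against non-epicardium 8 of the 11 were called lower and none higher (edgeR), with a median of -3.93. The part of cardiomyocyte RNA in the levels of nkx2.5, mef2ca, tbx5a, tbx20 and gata6 was not tested.

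**Figure D3:**
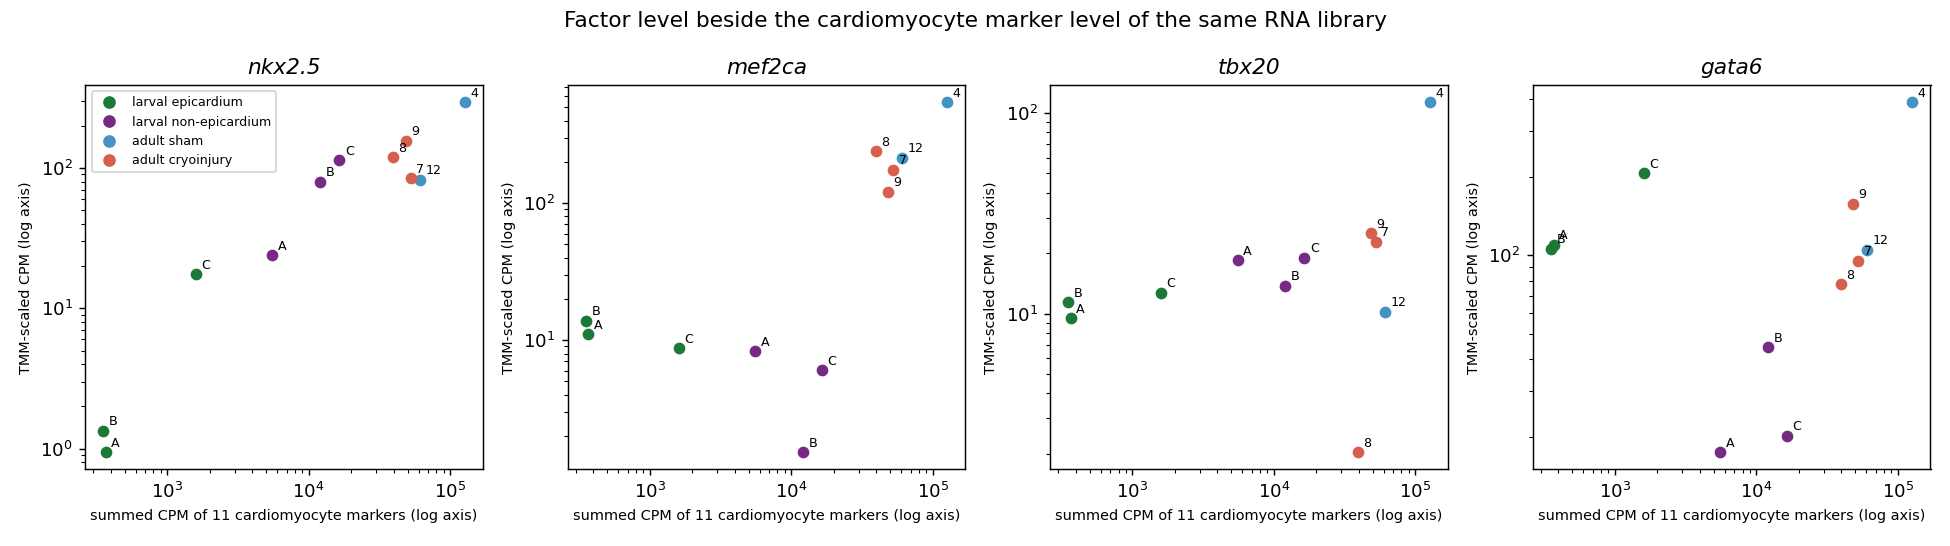
CPM of nkx2.5, mef2ca, tbx20 and gata6 (vertical, log axis) against the summed CPM of 11 cardiomyocyte markers (horizontal, log axis), with 1 point per RNA library, named by its letter or number and coloured by group. nkx2.5 lies low where the marker sum is low, from 0.947 CPM at 369 CPM of markers to 293 CPM at 127000 CPM, while gata6 in larval epicardium is at 106 to 207 CPM beside marker sums of 354 to 1600 CPM.

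Leukocyte markers also differed between larval and adult libraries. The 6 of them summed to 8.93 to 21.8 CPM in larval epicardium, 148 and 166 CPM after sham surgery and 263 to 543 CPM after cryoinjury, and 5 of the 6 were called higher in each adult comparison. The sixth, the neutrophil gene mpx, was not called after cryoinjury and was called lower after sham surgery. The 5 mural and fibroblast markers in the table summed to 487 to 923 CPM in larval epicardium and to 5220 to 13800 CPM in adult libraries, and all 5 were called higher in each adult comparison. The 7 endothelial and endocardial markers summed to 569 to 941 CPM in larval epicardium and to 395 to 935 CPM in adult libraries, with 4 called higher in each adult comparison, 2 lower after cryoinjury (nfatc1 and klf2a) and 1 lower after sham surgery (klf2a). The 2 skin markers summed to 17 to 54.3 CPM in larval epicardium and 358 to 1160 CPM in adult libraries, with 1 called higher and 1 lower in each adult comparison. The 6 erythrocyte markers summed to 7.12 to 16.2 CPM and 219 to 1860 CPM, with 4 called higher and 2 lower in each. The short lists of neural and liver markers summed to at most 29.1 and 170 CPM in any library. No gene of any list was called between cryoinjury and sham surgery. The part of these cells in the tbx2b difference was not tested.

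Per kilobase of deposited gene length, hand2 was the most abundant factor in all 4 groups, with a mean of 173 CPM per kilobase in larval epicardium, 345 in larval non-epicardium, 106 after cryoinjury and 197 after sham surgery. In larval epicardium gata5 followed with 79.1 CPM per kilobase and gata6 with 54.7, and every other factor was at or under 8.35. In larval non-epicardium the next after hand2 was nkx2.5 with 43.9 CPM per kilobase, then gata5 with 34.3 and gata6 with 10.6. After cryoinjury nkx2.5 was second with 72.3 CPM per kilobase, and after sham surgery it was at 113, gata6 at 95.6, gata5 at 71.1 and mef2ca at 53.1. hand2, gata5 and gata6 stayed at or above the 82.4 percentile of all genes in every group. gata4 was at the 82.7 percentile in larval epicardium and at 65.6 to 75.3 in the other groups, and tbx20 at 77.3 to 93. mef2ca moved from the 55.6 percentile in larval epicardium to the 92.6 percentile after cryoinjury, and tbx2b from 57.7 to 91.5.

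A list of 41 related cardiac transcription factors and cofactors was set beside these 10, of which 37 were in the table and 35 were tested. Between larval epicardium and non-epicardium 4 of the 35 were higher and 3 lower, beside 13.4% of all genes called, with a median log2 difference of -0.15. The higher ones were zfpm2b (4.09 ± 0.96) and zfpm2a (3.98 ± 0.62), whose proteins bind Gata factors as cofactors, mef2cb (3.21 ± 0.53), the other zebrafish mef2c gene, and hopx (2.39 ± 0.53), an atypical homeobox gene. The lower ones were gata1a, the erythroid Gata gene (-9.64 ± 1.42), hey2, a Notch target of ventricular muscle (-3.35 ± 0.80), and mef2aa (-1.75 ± 0.47). Erythrocyte markers summed to 20400 to 29000 CPM in larval non-epicardium and to 7.12 to 16.2 CPM in epicardium, and their part in the gata1a difference was not tested.

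In adult libraries 7 of the 35 related genes were higher and 11 lower after cryoinjury, and 9 were higher and 6 lower after sham surgery, than in larval epicardium. Of all genes 12.1% were called higher and 26% lower after cryoinjury, and 11.5% higher and 25.6% lower after sham surgery. The highest after cryoinjury were irx1a (4.6 ± 0.79), tbx1 (3.82 ± 0.93), hey2 (3.39 ± 0.80) and irx5a (3.32 ± 0.86). After sham surgery they were irx1a (5.61 ± 0.85), hey2 (4.69 ± 0.88), irx5a (4.64 ± 0.94) and gata3 (3.74 ± 1.05). The homeobox genes nkx2.3 and isl2b were at or under the floor in all libraries of the adult groups in question, as isl1 was. Their levels after cryoinjury were at least 12.2-fold and 6.28-fold lower than in larval epicardium, and at least 10.4-fold and 5.36-fold lower after sham surgery. isl2a, a paralogue of isl1, was at least 10.2-fold lower after cryoinjury. Among the 4 lower genes of largest fitted change after sham surgery was also heyl, at least 1.71-fold lower. Between cryoinjury and sham surgery edgeR called none of the 35, and their median difference was -0.43.

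The genes most like each factor across the 11 RNA libraries were read from the correlation of log2 CPM, which is a description of libraries that share groups, stages and purification. nkx2.5 was closest to pgam2, a phosphoglycerate mutase of muscle (r = 0.985), bzw2 (0.977) and myl7, the atrial and ventricular myosin light chain gene of zebrafish heart muscle (0.974). mef2ca was closest to myh14 (0.993), obsl1a (0.990) and ank3a (0.990), and tbx2b to ptprga (0.978), golim4a (0.978) and kank3 (0.976). gata6 was closest to cttn, which encodes the actin-binding protein cortactin (0.938), plekho1b (0.918) and ccdc88c (0.916). hand2 was closest to the mitochondrial ribosomal protein genes mrpl9 (0.951) and mrpl20 (0.948) and to EIF1B (0.944). tbx5a was closest to mylk4b (0.956) and tbx20 to ssh1a (0.921). gata4 and gata5 had looser neighbours, with highest values of 0.889 for mgea5 and 0.856 for rac1b. isl1 was closest to asz1 (0.994), with no isl1 count in 5 of the 11 libraries.

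The 57 peaks annotated to the factors were spread unevenly. tbx20 had 14, hand2 and mef2ca 12 each, gata6 5, gata4 and gata5 4 each, isl1 and tbx5a 2 each, and nkx2.5 and tbx2b 1 each. By the deposited annotation 32 lay between genes, 15 in introns, 9 at a promoter and 1 in an exon. Distances run from the peak to the nearest annotated transcript start, with negative values upstream. The 12 mef2ca peaks were measured from 5 different transcript starts, and the gata4 and gata6 peaks from 2 each. Distances within each of these genes are therefore not on 1 scale. Coordinates are those of the deposited files, on the zebrafish build GRCz10 named in the submitters' processing notes.

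In larval cells sorted by tcf21, 2 of the 57 peaks were more accessible in epicardium and none was less accessible in edgeR, 3.51% against 13.2% of all peaks. At an unadjusted p under 0.05 there were 8 higher and 5 lower, beside 27% of all peaks, and DESeq2 also called 2 higher and none lower. In cells sorted by tbx18, 8 peaks were more and 7 less accessible in epicardium, 26.3% against 26.9% of all peaks. The tbx18 libraries were deeper, with 2051230 to 6248597 counts against 755606 to 2273259 in tcf21 libraries. No peak of the factors differed between the reporters in the test of that difference (the interaction in edgeR; 0 of 57 against 1.51% of all peaks, and none in DESeq2). At an unadjusted p under 0.05 there were 6, beside 16.3% of all peaks. Of the 57 peaks 1 was called higher with both reporters, and 41 were called with neither.

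**Figure D4:**
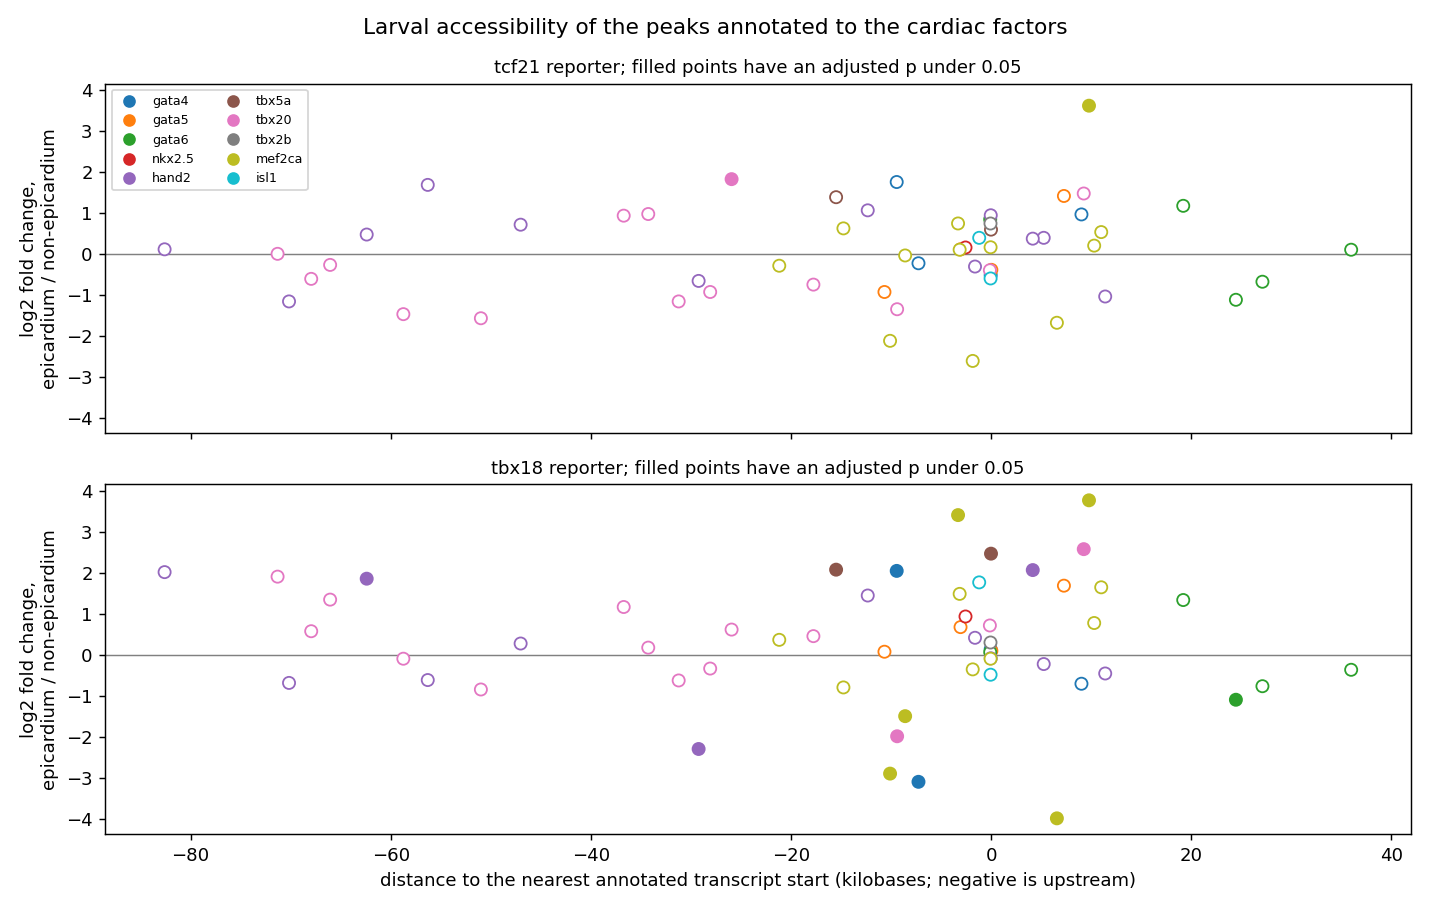
Log2 fold change of accessibility between larval epicardium and non-epicardium for the 57 peaks annotated to the factors, with tcf21 libraries above and tbx18 libraries below, against the distance to the nearest annotated transcript start in kilobases; colours are genes, and filled points have an adjusted p under 0.05. A mef2ca intron peak lies at the top of both panels, at 3.62 and 3.77.

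The peak called with both reporters was annotated as intronic to mef2ca, at chr10:43773220-43773720, 9793 bases from the nearest annotated start. It was at 31.3 and 46.6 CPM in tcf21 epicardium against 3.49 and 2.33 CPM in non-epicardium, and at 38.8 and 34.9 CPM in tbx18 epicardium against 1.80 and 4.21 CPM. All 4 epicardial libraries lay far above all 4 non-epicardial ones, of which tcf21 non-epicardium 2 had 2 counts, under the floor. The log2 difference was 3.62 ± 0.61 with tcf21 (n = 2 and 2, adjusted p = 4.85e-05, edgeR) and 3.77 ± 0.54 with tbx18 (n = 2 and 2, adjusted p = 1.35e-06). Both calls held in all 13 alternatives each. In adult libraries the same peak was at 10.5 to 18 CPM after cryoinjury and at 11.6 and 15.9 CPM after sham surgery, between the larval populations. mef2ca RNA was also higher in larval epicardium than in non-epicardium, without overlap, but was not called (1.08 ± 0.57, adjusted p = 0.231, edgeR). Unlike the peak, it was highest in adult libraries, where RNA came from captured nuclei and ATAC from sorted cells.

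Other mef2ca peaks changed in tbx18 cells in both directions. An intron peak 6584 bases from its nearest start, at chr10:43776429-43776929, was at 1.61 and 0.513 CPM in tbx18 epicardium and at 13.3 and 27.4 CPM in non-epicardium. It was lower in both epicardial libraries, by -3.98 ± 0.75 (adjusted p = 8.66e-05), and with tcf21 the difference was -1.67 ± 0.87 (adjusted p = 0.207). In tbx18 cells epicardium 2 had 1 count, under the floor, so the size of that difference was not measured well. An intron peak at -3293 was at 32.8 and 37.5 CPM in tbx18 epicardium against 3.96 and 2.11 CPM (3.41 ± 0.64, adjusted p = 8.03e-05). With tcf21 the same peak was at 2.24 and 19.5 CPM against 2.49 and 11.7 CPM, and the populations overlapped. Of 2 further mef2ca peaks lower in tbx18 epicardium, the one at -10087 differed by -2.89 ± 0.84 (adjusted p = 0.00827) and was not called without epicardium 1 (-2.68) or non-epicardium 1 (-2.0). The one at -8581 differed by -1.49 ± 0.54 (adjusted p = 0.0337), a call lost without any 1 of the 4 libraries (-1.16 to -1.81). The mef2ca promoter peak at -42 did not pass in any comparison and stayed between 4.35 and 13.2 CPM in all 14 libraries.

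Of the promoter peaks of the Gata genes and hand2, none of the 4 was called in either larval comparison. The gata6 promoter peak at chr2:4365931-4366431 was at 45.8 and 52.6 CPM in tcf21 epicardium and at 27.4 and 26.8 CPM in non-epicardium, so that the populations did not overlap. The difference of 0.85 ± 0.42 did not pass (adjusted p = 0.178), and it was called only with the trend on abundance removed (1.13, adjusted p = 0.0473). In tbx18 cells the gata6 promoter was at 75.9 and 64.1 CPM against 62.6 and 71.7 CPM, a difference of 0.07 ± 0.36. gata6 RNA was measured in tcf21 cells alone, where it was 5.15-fold higher in epicardium. A gata6 peak 24474 bases from its nearest annotated start was lower in tbx18 epicardium, at 38.0 and 48.8 CPM against 84.3 and 99.6 CPM (-1.09 ± 0.40, adjusted p = 0.0365). This call was lost in 6 of 13 alternatives, each of the 4 libraries left out in turn among them. The gata5 promoter was at 20.1 and 19.5 CPM against 25.9 and 25.7 CPM with tcf21, and the gata4 promoter at 13.4 and 9.01 CPM against 14.5 and 18.7 CPM, and neither passed with either reporter. The hand2 promoter was at 20.1 and 30 CPM against 20 and 2.33 CPM with tcf21 (0.95 ± 0.53, adjusted p = 0.244). Without non-epicardium 1 the difference was 3.41, and it then rested on non-epicardium 2, which had 2 counts, under the floor.

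Peaks of gata4 and hand2 away from the promoter were called in both directions in tbx18 epicardium, with 1 higher and 1 lower of the 4 gata4 peaks and 2 higher and 1 lower of the 12 hand2 peaks. A gata4 peak at -7248, annotated as exonic, was at 1.61 and 5.13 CPM against 30.9 and 20 CPM, a difference of -3.09 ± 0.71 (adjusted p = 0.000929) that was -2.32 and not called without epicardium 1 (adjusted p = 0.0556). With tcf21 the same peak was at 19.0 and 1.5 CPM against 9.98 and 16.3 CPM, and its epicardial libraries disagreed. Epicardium 2 had 1 count there, under the floor. A hand2 peak at -29220 was at 6.84 and 16.4 CPM in tbx18 epicardium against 55.0 and 53.7 CPM (-2.29 ± 0.64, adjusted p = 0.00596). It was not called in DESeq2 (adjusted p = 0.163) or without epicardium 1 (-1.73, adjusted p = 0.121). The higher gata4 peak, annotated as intronic at -9424, was at 12.5 and 10.3 CPM in tbx18 epicardium against 1.80 and 4.21 CPM (2.05 ± 0.69, adjusted p = 0.0229), and its call was lost without epicardium 1 (1.89) and without non-epicardium 1 (1.43). The higher hand2 peaks lay between genes. The one at 4173 was at 13.5 and 14.4 CPM against 1.98 and 5.27 CPM (2.07 ± 0.71, adjusted p = 0.0252) and was not called without epicardium 1 (2.10), epicardium 2 (2.02) or non-epicardium 1 (1.39). The one at -62392 was at 8.65 and 4.62 CPM against 1.44 and 2.63 CPM (1.86 ± 0.66, adjusted p = 0.0312), a call that was lost in 4 of 13 alternatives, among them without epicardium 1 (1.29) and without non-epicardium 1 (1.37). Epicardial libraries lay above non-epicardial ones in all 3 of these peaks, which were picked because they were called higher in the same libraries.

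Both tbx5a peaks were more accessible in tbx18 epicardium, and of the 14 tbx20 peaks 1 was more and 1 less accessible. The tbx5a promoter peak at chr5:71504893-71505393 was at 25.0 and 15.4 CPM in tbx18 epicardium against 3.96 and 3.16 CPM, with no overlap and a difference of 2.47 ± 0.59 (adjusted p = 0.00143) that held in all 13 alternatives. With tcf21 it was at 10.1 and 15 CPM against 4.99 and 12.8 CPM, which overlapped (0.60 ± 0.68, adjusted p = 0.613). The other tbx5a peak, annotated as intronic at -15481, was also higher in tbx18 epicardium (2.08 ± 0.66, adjusted p = 0.0157), but not called without epicardium 1 (1.99) or non-epicardium 1 (1.68). A tbx20 intron peak at 9268 was at 8.45 and 11.3 CPM in tbx18 epicardium against 2.16 and 0.527 CPM (2.58 ± 0.71, adjusted p = 0.00532), and at 21.2 and 18 CPM against 5.49 and 9.33 CPM with tcf21 (1.48 ± 0.70, adjusted p = 0.163). In tbx18 cells non-epicardium 2 had 1 count, under the floor. The lower tbx20 peak, between genes at -9382, was at 2.82 and 0.513 CPM in tbx18 epicardium against 8.45 and 6.85 CPM (-1.98 ± 0.74, adjusted p = 0.0426), and its call was lost in 6 of 12 alternatives, among them DESeq2 (adjusted p = 0.0796) and without epicardium 2 (-1.44), non-epicardium 1 (-1.80) or non-epicardium 2 (-1.96). In the tbx20 peak at -9382, tbx18 epicardium 2 had 1 count, under the floor. The second peak called with tcf21 lay at -25925 from tbx20, at chr16:42645661-42646161. It was at 20.1 and 33.0 CPM in epicardium against 10.5 and 2.33 CPM (1.83 ± 0.57, adjusted p = 0.0246). Non-epicardium 2 had 2 counts, under the floor. This tbx20 peak was not called without epicardium 2 (1.60), without non-epicardium 2 (1.32) or in a fit of the compared groups alone (adjusted p = 0.0537). Without non-epicardium 1 its difference was 3.49. The tbx2b promoter peak, the peak of that gene in the set, was at 31.3 and 19.5 CPM against 17.0 and 12.8 CPM with tcf21 and did not pass with either reporter.

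**Figure D5:**
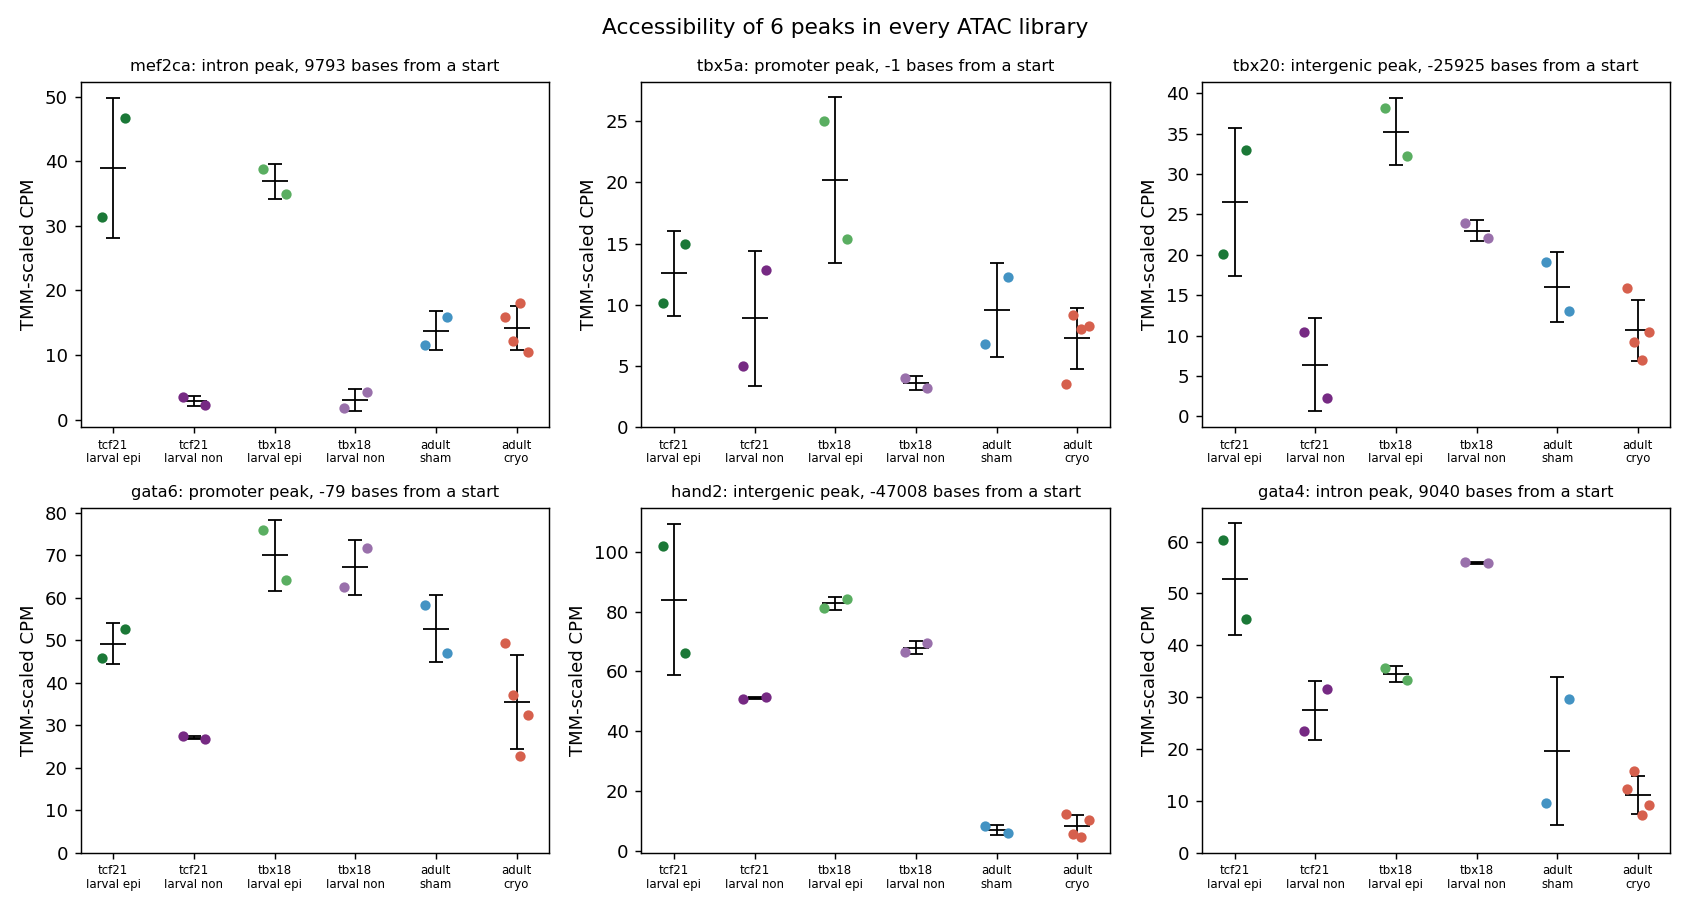
TMM-scaled CPM of 6 peaks annotated to mef2ca, tbx5a, tbx20, gata6, hand2 and gata4 in every ATAC library; points are libraries, long bars are group means, whiskers are 1 SD, and titles give the distance to the nearest annotated start. The mef2ca intron peak is at 31.3 to 46.6 CPM in the larval epicardium of both reporters against 1.80 to 4.21 CPM in non-epicardium, and the hand2 peak is at 4.67 to 12.3 CPM in adult libraries against 50.9 to 102 CPM in larval ones.

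nkx2.5 and isl1 had few peaks, and none was called. The nkx2.5 peak lay between genes at -2576, at 0.527 to 9.05 CPM over all 14 libraries, near the floor of the shallow ones, where 3 counts were up to 3.97 CPM. The isl1 promoter peak was at 0.882 to 11.7 CPM, with overlap between every pair of groups compared.

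No peak of the factors was called more accessible in adult than in larval tcf21 epicardium. Of all peaks, few were called in that direction, 3.98% after cryoinjury and 2.34% after sham surgery. After cryoinjury 8 of 57 were lower, 14% of the factors' peaks against 10.1% of all peaks, and 14% of all peaks were called in either direction. After sham surgery 7 were lower, 12.3% against 5.3% of all peaks, with 7.64% of all peaks called in either direction. At an unadjusted p under 0.05 there were 0 higher and 13 lower of the 57 after cryoinjury, and 0 higher and 12 lower after sham surgery. Of all peaks, 28.6% and 23.9% had such a p in either direction, and the lower direction alone was not counted. DESeq2 called 9 and 8 lower and none higher. With scaling by total count the cryoinjury count was 4, where 9145 of all peaks were called in either direction, against 8685 in the main fit. It was 5 without cryoinjury 2 or 3, where 6674 and 6365 of all peaks were called. Over all alternatives it ran from 3 to 17. The sham count was 2 with scaling by total count, where 4661 of all peaks were called, against 4726 in the main fit. It ran from 2 to 10 over all alternatives, with fewer of all peaks called where a group was left with 1 library. The highest values, 17 and 10, came from other deposited gene columns, with 109 and 111 peaks tested in place of 57. Of the 109, 16 were lower and 1 was higher. With the gene column used here the highest counts were 9 and 8. Of the 57 peaks, 12 were lower in at least 1 of the comparisons, which share the larval libraries. Neither this overlap nor that of peaks lower in both was counted over all peaks, so nothing about the factors is read from it. Of the 12, 3 were lower in both, and the gata4 and hand2 peaks among them are named here after their values were seen.

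The hand2 peak at -47008, chr1:37522592-37523092, was at 102 and 66.1 CPM in tcf21 larval epicardium and at 50.9 to 84.2 CPM in the other 6 larval libraries. It was at 12.3, 5.67, 4.67 and 10.3 CPM after cryoinjury and at 8.19 and 5.80 CPM after sham surgery. All adult libraries lay below all larval libraries of either reporter and population. The log2 difference was -3.39 ± 0.36 after cryoinjury (n = 4 and 2, adjusted p = 4.76e-09, edgeR) and -3.54 ± 0.46 after sham surgery (n = 2 and 2, adjusted p = 3.87e-06), and leaving out a library gave -3.07 to -3.75 and -3.26 to -3.94. hand2 RNA was not called in either of these comparisons. A gata4 intron peak at 9040, chr20:53153099-53153599, was at 60.4 and 45.1 CPM in tcf21 larval epicardium, 7.35 to 15.7 CPM after cryoinjury and 9.55 and 29.7 CPM after sham surgery. Its difference was -2.28 ± 0.39 after cryoinjury (adjusted p = 4.71e-05) and -1.51 ± 0.46 after sham surgery (adjusted p = 0.0359), and the sham call was lost without larval epicardium 1 (-1.35) and without sham 1 (-0.84). Without sham 2 it was -2.47. The mef2ca intron peak at 9793 was lower by -1.46 ± 0.41 after cryoinjury (adjusted p = 0.0128) and by -1.51 ± 0.49 after sham surgery (adjusted p = 0.0499). Its cryoinjury call was lost in 3 of 15 alternatives, among them without larval epicardium 2 (-1.25, adjusted p = 0.151) and with scaling by total count (-1.12, adjusted p = 0.0524). Its sham call was lost in 9 of 13, each of the 4 libraries left out in turn among them.

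Between cryoinjury and sham surgery no peak of the factors was called, against 0.00162% of all peaks, in edgeR. At an unadjusted p under 0.05 there was 1 higher and 1 lower, beside 6.69% of all peaks, DESeq2 called none, and the median log2 difference of the 57 peaks was 0.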

How the data were processed

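The authors deposited whole-number read counts per gene for RNA and per peak for ATAC, from 1 peak set shared by all ATAC libraries, and these counts were tested as deposited. The FPKM values that the authors deposited for the peaks were not tested: each library sums to the same total. The gene length and the distance to the nearest transcription start come from the deposited tables. The RNA kit was SMART-Seq v4 with Nextera XT, per the labels' protocols, and whether counting used strand is not given in the sources used here. Bowtie 1.2.3, SAMtools 1.10, MACS2 2.2.7.1, HOMER, DiffBind 3.0.13, STAR 2.7.3a, featureCounts, edgeR 3.32.1 and the build GRCz10 are named, per the submitters' processing notes, with no role given. The lowest ATAC count is 1, so a 1 stands for 1 read or none, and even counts were up to 3.7 times as frequent as odd ones in ATAC, so part of these counts come in pairs.

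The test was the two-sided quasi-likelihood test in edgeR 4.0.16, run in R 4.3.3 (TMM scaling, filterByExpr by group with a minimum count of 10 and a minimum total of 15, 1 mean per group, all libraries of an assay in 1 fit). The Benjamini-Hochberg adjustment ran over all genes or peaks tested, and called means an adjusted p under 0.05. A standard error is the size of the log2 fold change over the root of its F value. A fold against libraries at or under 3 counts divides the mean of the other group by the highest floor. It is a lower bound for the side at the floor only, and the spread of the other group is not in it. These bounds account for counting error at the floor alone, because PCR copies of a molecule are not independent of each other. The fit was tested on simulated data. No replicate pair matched within sampling noise: chi-square over its degrees of freedom was 26.3 to 73.8 for RNA pairs and 3.14 to 5.10 for ATAC pairs.

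The genes, the list of 41 related factors and the marker lists were chosen with earlier results of these data known. Named peaks are, for each gene, the promoter peak nearest its start and the called peak of largest larval change, and all called peaks where there were 5 or fewer; the text also names other peaks after their values were seen. Related genes are named up to 4 per direction, except for a gene that is counted but not reported here, and neighbours are the 3 genes with the highest Pearson correlation of log2 CPM (prior count 2) among named genes with at least 5 CPM in 1 group. The alternatives tried were total-count scaling, DESeq2 size factors, no filter, removal of the trend on abundance by cyclic loess (limma 3.58.1), DESeq2 1.42.0 (Wald test), a fit of the compared groups, a minimum absolute log2 fold change of 1, halved ATAC counts, another deposited gene column, a replicate block and leaving out each library. No sequence is shown.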

Additional observations from a re-analysis of the deposited data

Results flagged for a closer look

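The mef2ca intron peak 6584 bases from its nearest start was at 7.94 CPM in cryoinjury 1. It was at 3.49, 3.01 and 3.50 CPM in the other cryoinjury libraries, a gap that made cryoinjury 1 stand apart from its group. The hand2 peak at 4173 stood apart in the same library, at 13.2 CPM in cryoinjury 1 against 4.36, 3.34 and 4.12 CPM in the others. Of the 57 peaks annotated to the factors, 3 had such a cryoinjury library, and chance gives about 1 in 20 groups. Cryoinjury 1 was the shallowest cryoinjury library, with 1070024 counts, and the part of depth in these values was not tested.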

How the results depend on the processing

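The number of called factors or peaks depended on the setting in several comparisons. In RNA, 4 factors were called between the larval populations with scaling by total count. Among the peaks, tcf21 calls were 4 of 57 with the trend on abundance removed. They were 4 of 64 tested with another deposited gene column, whose making is not explained in the sources used here. Columns of that kind gave 23 of 95 tested peaks with tbx18 and 17 of 109 for cryoinjury against larval epicardium. In the main fit these were 15 and 8 of 57, so more peaks were tested as well as called. Total count gave 4 of 57 for cryoinjury against larval epicardium. Halved counts gave 20 of 50 tested with tbx18, 14 higher and 6 lower, beside 19290 of all 56984 peaks tested. For sham against larval epicardium the count was 2 with total count. In a fit of the compared groups it was 4 of 34 tested, beside 4529 of all 38955. Leaving out a library gave 1 to 2 called factors between the larval populations (1 without epicardium B) and 3 to 5 for sham against larval epicardium (3 without sham 4). The peak counts were then 1 to 3 with tcf21 (1 without epicardium 2), 6 to 13 with tbx18 (6 without epicardium 1 and 8 without non-epicardium 1), 5 to 7 for cryoinjury and 2 to 5 for sham against larval epicardium.

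Signs turned for differences that were not called. tbx2b between larval populations was -0.07 with no filter and -0.45 to 0.41 without a library. hand2 for sham against larval epicardium was -0.09 with DESeq2 size factors, -0.38 with total count, -0.05 with the trend removed and -0.09 in DESeq2. Leaving out a library gave, for cryoinjury against sham, -1.78 to 0.04 for gata6, -1.25 to 0.50 for nkx2.5, -2.72 to 0.67 for tbx20 and -0.06 to 1.14 for tbx2b. Against larval epicardium it gave -1.11 to 0.08 for gata4 after cryoinjury, and -0.40 to 0.09 for gata5, -0.38 to 1.44 for gata6 and -0.08 to 3.30 for tbx20 after sham surgery, the last of which was called with all libraries. With tcf21 the range was -2.97 to 0.70 for the gata4 exon peak (0.08 with halved counts), -2.06 to 0.53 for the hand2 peak at -29220, -1.87 to 0.29 for the isl1, -0.30 to 0.74 for the mef2ca and -0.03 to 1.31 for the tbx5a promoter. With tbx18 the promoters gave -0.30 to 0.13 for hand2 (0.01 with total count), -0.23 to 0.63 for gata5, -0.06 to 0.31 for gata6, -0.09 to 0.36 for gata4, -0.29 to 0.16 for mef2ca (0.05 with halved counts) and -1.48 to 0.01 for isl1. The cause was not tested.

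Replicate numbers were not taken to pair the libraries. Same-numbered libraries had correlations of deviations from -0.211 to 0.045 in larval RNA and from -0.04 to 0.121 in ATAC. With so few libraries in a group, deviations from its mean are tied to one another, so these values cannot exclude pairing. A replicate block gave -0.04 for tbx2b between larval populations and 3 called peaks in place of 8 for cryoinjury against larval epicardium. No paired analysis was possible for the adult RNA comparisons because the columns share fewer than 2 numbers. Scaling moved the median log2 difference of all genes between larval populations from 0.32 to 0.93 with total count, and for cryoinjury and sham against larval epicardium from -0.59 and -0.92 to -0.86 and -1.53. With 755606 counts in the shallowest ATAC library, 3 counts equal 3.97 CPM there, and smaller peak levels were not measured.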
